A study of Rattus norvegicus with 54 samples.

Results

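The genes described here are 7 microglial and inflammatory genes in cultures of rat cortical neurons: Aif1 (ENSRNOG00000000853), Cd68 (ENSRNOG00000037563), Il6 (ENSRNOG00000010278), Il1b (ENSRNOG00000004649), Ccl2 (ENSRNOG00000007159), Nfkbia (ENSRNOG00000007390) and Icam1 (ENSRNOG00000020679). They were named by Ensembl identifier, and an identifier was kept when the count table placed it on the chromosome stated for it. Of 9 identifiers named, 7 were kept, out of 30560 genes in the table. The identifier given for Csf1r lay on chromosome 2 and not on 18, and the one given for Socs3 was not found in the count table used here, so neither gene was analysed here.

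RNA was sequenced from 54 libraries of cortical cells from rat embryos of embryonic day 18, labelled as neurons. Cultures were untransfected, or carried an adeno-associated virus named AAV_SYN_GFP (called GFP here) or AAV_SYN_rMBD3_GFP (called rMBD3 here), which overexpresses Mbd3, a methyl-CpG binding domain protein. Both viruses use the SYN promoter, a neuronal promoter, so the transgene is placed under neuronal control. Each culture stood in medium with magnesium or in magnesium-free medium (the epileptiform condition), and was taken at 2, 6 or 24 h. The 3 constructs, 2 media and 3 time points gave 18 groups of 3 libraries, and the labels number the cell cultures 1 to 3 in every group. The study asks what Mbd3 does while epileptiform activity develops. Total counts ran from 14448927 to 39691105 per library, with a median of 26121007. Levels are given in CPM (counts relative to a fixed library total), on library sizes scaled by the trimmed mean of M-values, and 3 counts amount to between 0.0756 and 0.208 CPM. Marker genes of neurons and of other cell types, other than the genes described here, and Mbd3 itself were not analysed here, because no source at hand paired their symbols with identifiers of the count table.

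Microglia are the resident macrophages of the brain, and cultures of embryonic cortex can carry a few of them among neurons and astrocytes. Aif1 encodes IBA1, a calcium-binding protein used to mark microglia, and Cd68 encodes a lysosomal glycoprotein of macrophages. In inflammatory signalling, the transcription factor NF-kappaB is held in the cytoplasm by inhibitors such as the product of Nfkbia, IκBα, and its release switches on cytokines such as Il6 and Il1b, the chemokine Ccl2 and the adhesion molecule Icam1. Nfkbia is itself an NF-kappaB target, which closes a negative feedback loop. Astrocytes, endothelial cells and neurons can also use parts of this programme, and in bulk RNA fewer cells of a type and less RNA per cell cannot be told apart.

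Promoters from RefSeq (rat assembly GRCr8, not the mRatBN7.2 build of the count table) were matched by symbol for 5 of the 7 genes. The 250 bases before the start are shown for the 3 genes that were highest together in replicate 1 of the rMBD3 cultures, as described below, with a match to the NF-kappaB consensus in capitals.
Nfkbia: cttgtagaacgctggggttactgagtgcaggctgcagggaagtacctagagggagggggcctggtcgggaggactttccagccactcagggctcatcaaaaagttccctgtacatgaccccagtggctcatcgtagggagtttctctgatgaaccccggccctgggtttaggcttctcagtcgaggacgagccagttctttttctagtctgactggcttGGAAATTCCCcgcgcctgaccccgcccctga
Il6: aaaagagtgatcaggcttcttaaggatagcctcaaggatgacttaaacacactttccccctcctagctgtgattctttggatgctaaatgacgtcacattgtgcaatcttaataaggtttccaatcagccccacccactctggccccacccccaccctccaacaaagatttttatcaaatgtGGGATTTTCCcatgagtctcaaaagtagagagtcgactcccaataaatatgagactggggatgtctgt
Icam1: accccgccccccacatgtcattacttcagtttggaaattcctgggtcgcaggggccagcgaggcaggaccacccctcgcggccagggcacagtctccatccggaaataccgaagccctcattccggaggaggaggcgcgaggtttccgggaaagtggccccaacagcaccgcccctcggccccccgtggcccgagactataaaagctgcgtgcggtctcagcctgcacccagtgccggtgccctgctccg
These are chr6:78597073-78597322 (minus strand), chr4:5894576-5894825 (minus strand) and chr8:27829595-27829844 (plus strand). The Nfkbia match, GGAAATTCCC, began 31 bases before the start and read on the opposite strand. The Il6 match, GGGATTTTCC, began 68 bases before the start, and a cyclic AMP response element, TGACGTCA, began 162 bases before it. The consensus, searched on both strands, occurred in 6.33% of 33469 RefSeq promoters of this length, and TGACGTCA in 1.59%. No exact match to that consensus, GGGRNNYYCC (R is A or G, Y is C or T, N is any letter), was found in these windows of Icam1, Cd68 or Il1b. The Icam1 window does hold TGGAAATTCC, and the Nfkbia window also holds AGGACTTTCC. Each of these differs from the consensus in its first letter only. Variants of the consensus were not searched, so the lack of an exact match does not show the lack of a site. The AP-1 letters TGANTCA, searched on both strands and present in 6.34% of promoters, matched at 2 places in Cd68 and at none in the other 4. The letters TATAAA, searched on the forward strand and present in 8.06%, occurred in Icam1 (53 bases before the start) and Il1b (60 bases before).

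In the count table (mRatBN7.2) the genes lie at chr20:3646777-3652668 (Aif1, plus strand), chr10:54381815-54383697 (Cd68, minus), chr4:5213394-5219178 (Il6, minus), chr3:116577010-116583415 (Il1b, minus), chr10:67005424-67007226 (Ccl2, plus), chr6:72858712-72861941 (Nfkbia, minus) and chr8:19553645-19565438 (Icam1, plus). Counts were summed over exons, and no exon of the 7 overlapped an exon of another gene. Per kilobase of exon, the median level over the 54 libraries was 54.3 CPM for Ccl2 (8.33 to 196), 37.1 for Cd68 (5.11 to 121), 28.8 for Nfkbia (12.9 to 110) and 17.5 for Icam1 (4.26 to 82.5). The ranges of these 4 genes overlapped. Il6 was lower, at a median of 1.26 CPM per kilobase (0.0312 to 15.5). The medians of Aif1 and Il1b were 0, with highest levels of 2.32 and 0.621 CPM per kilobase.

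**Figure D1:**
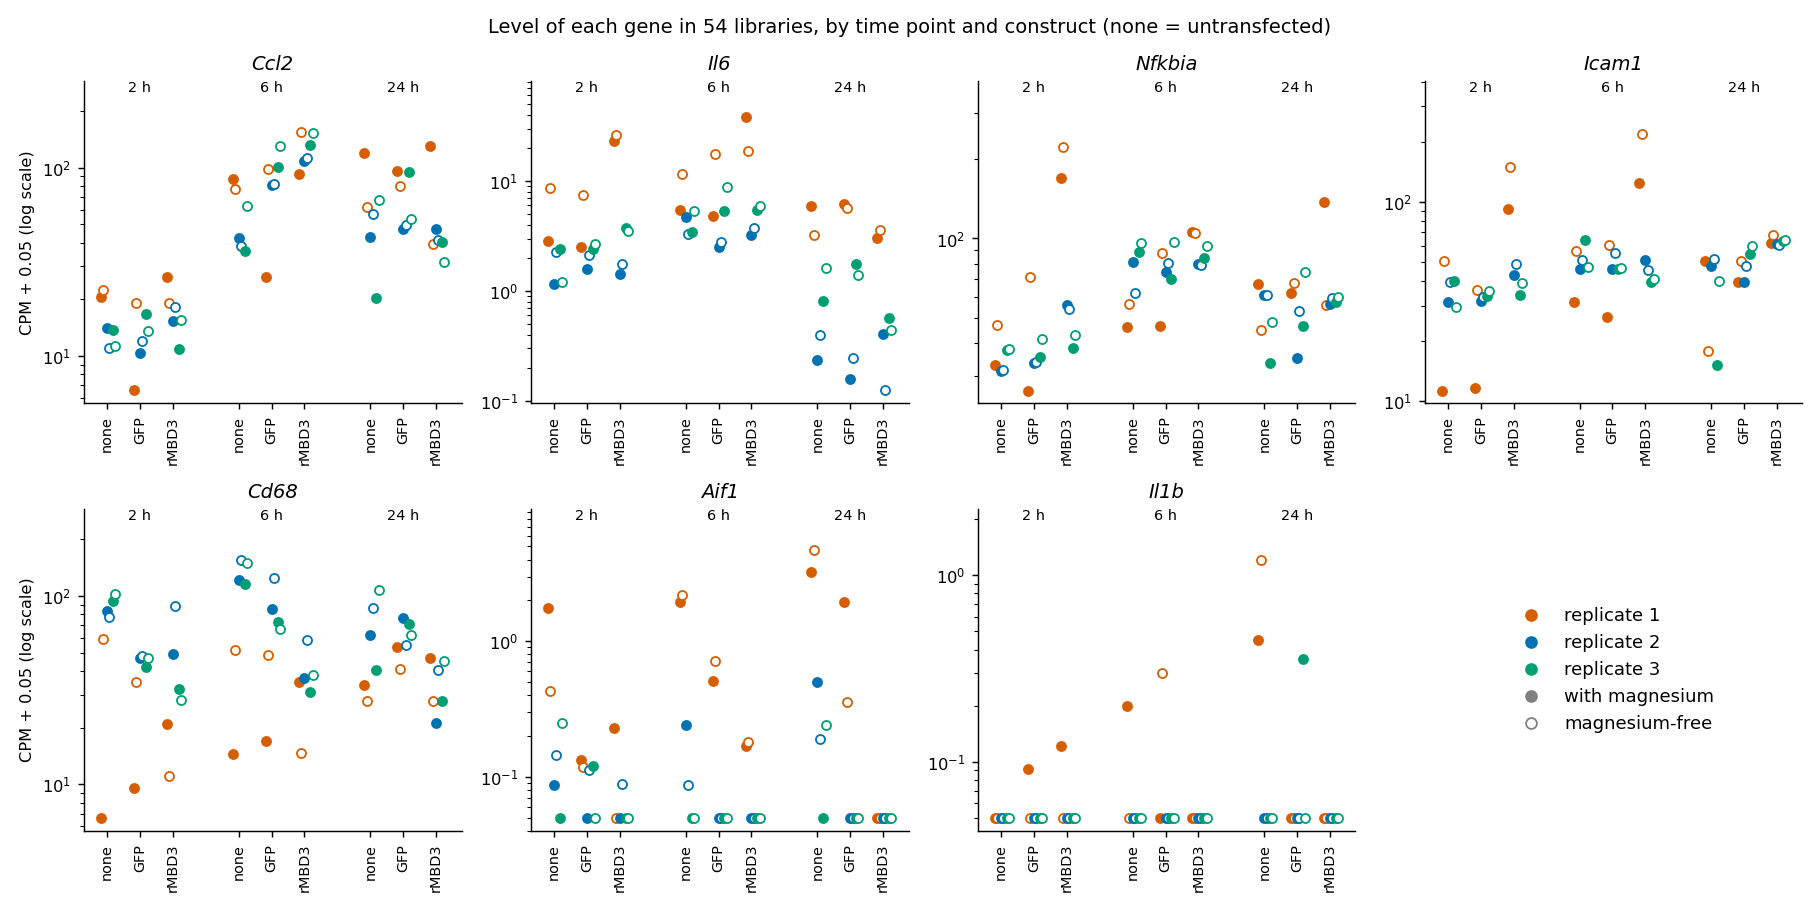
Level of each of the 7 genes in every library, as CPM plus 0.05 on a log axis, by time point and construct, with 1 point per library, colour for the replicate number and open points for magnesium-free medium. Ccl2 stood higher at 6 h than at 2 h in every construct, and the highest Nfkbia, Icam1 and Il6 values were those of replicate 1 of the rMBD3 cultures.

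Replicate 1 differed from the other two cultures in the levels of several of these genes. Over all genes, the mean r of a library with the others of its group had a median of 0.969 in replicate 1 (0.935 to 0.988), 0.980 in replicate 2 (0.938 to 0.990) and 0.981 in replicate 3 (0.943 to 0.993), and these ranges overlapped. Aif1 had 497 of its 538 counts there. Median Il6 was 6 CPM in replicate 1 and 2.14 CPM in replicates 2 and 3. Cd68 went the other way, with a median of 30.6 CPM (6.57 to 59) in replicate 1 and 62.1 CPM (21.1 to 155) in replicates 2 and 3. Values without replicate 1 are given where they bear on a call or on the size of a difference. The share of all genes whose libraries did not overlap between groups was not computed. Gaps between ranges are therefore given as descriptions only.

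Between 2, 6 and 24 h the chemokine, the cytokine and the NF-kappaB inhibitor changed, and the main changes of all 3 also passed without replicate 1. Several of these changes did not pass without replicate 2 or without replicate 3, as given below. Such changes were common, since 49.1% of all genes passed from 2 to 6 h and 50.6% from 6 to 24 h. Ccl2, the ligand that draws monocytes through the receptor Ccr2, rose between 2 and 6 h. In untransfected cultures with magnesium it was at 20.5, 14 and 13.7 CPM in replicates 1, 2 and 3 at 2 h, and at 87.3, 42.4 and 36.3 CPM at 6 h. In GFP cultures the same values were 6.53, 10.4 and 16.8 CPM at 2 h and 26.3, 80.5 and 101 CPM at 6 h. In rMBD3 cultures they were 26.4, 15.4 and 10.9 CPM at 2 h and 92.5, 109 and 132 CPM at 6 h. Over all constructs and media, the 18 libraries at 2 h spanned 6.53 to 26.4 CPM and the 18 at 6 h spanned 26.3 to 154 CPM, so the time points touched only at the lowest 6 h library, GFP replicate 1 with magnesium. edgeR put the difference at 2.48 on the log2 scale (SE 0.20, adjusted p = 7.4e-13), and all 18 same-numbered pairs were higher at 6 h. These pairs come from only 3 culture numbers, and the fit takes all libraries as independent. Without replicate 1 the difference was 2.66 ± 0.14 (adjusted p = 1.24e-12, edgeR). At 24 h Ccl2 spanned 20.4 to 130 CPM, lower than at 6 h by a log2 fold change of -0.48 ± 0.19 (adjusted p = 0.0339, edgeR) and still above 2 h by 1.99 ± 0.20 (adjusted p = 1.51e-11, edgeR). Without replicate 1 these were -0.78 ± 0.13 (adjusted p = 2.77e-05, edgeR) and 1.88 ± 0.14 (adjusted p = 2.39e-11, edgeR). The 24 h level was below the 6 h level in 12 of 18 pairs, and the fall did not pass without replicate 2 (-0.43, adjusted p = 0.239, edgeR) or without replicate 3 (-0.28, adjusted p = 0.391, edgeR).

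Il6, a cytokine that signals through STAT3, was lowest at 24 h. Its median was 2.41 CPM at 2 h (1.11 to 26.4), 5.3 CPM at 6 h (2.44 to 38.1) and 1.06 CPM at 24 h (0.0765 to 6.13). In replicates 2 and 3 the 12 libraries at 6 h spanned 2.44 to 8.87 CPM and the 12 at 24 h spanned 0.0765 to 1.72 CPM. In replicate 1 levels at 24 h were still 3.01 to 6.13 CPM. Il6 fell by 2.00 ± 0.52 on the log2 scale from 6 to 24 h (adjusted p = 0.00138, edgeR), and in 16 of 18 pairs. Without replicate 1 the log2 fold change was -2.97 ± 0.41 (adjusted p = 1.3e-06, edgeR), and without replicate 3 it was -1.85 and did not pass (adjusted p = 0.0732, edgeR). Against 2 h, Il6 at 24 h was lower by a log2 fold change of -1.22 ± 0.51 (adjusted p = 0.032, edgeR). That call was lost without replicate 2 (-1.02, adjusted p = 0.0879, edgeR) or replicate 3 (-1.15, adjusted p = 0.209, edgeR), whereas without replicate 1 the change was -1.83 (adjusted p = 0.000256, edgeR). From 2 to 6 h its log2 fold change was 0.78 ± 0.50 and did not pass (adjusted p = 0.199, edgeR), although 17 of 18 same-numbered pairs were higher at 6 h. With the replicate number as a block it was 0.92 ± 0.27 (adjusted p = 0.00332, edgeR), and without replicate 1 it was 1.13 ± 0.37 (adjusted p = 0.0107, edgeR).

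Nfkbia rose from 2 to 6 h and was lower again at 24 h. The medians were 38.1, 80.9 and 58.4 CPM at 2, 6 and 24 h. In replicates 2 and 3 the 2 h libraries spanned 31.2 to 55.7 CPM and the 6 h libraries 62.2 to 96.6 CPM. All 12 same-numbered pairs of these replicates were higher at 6 h. In replicate 1 the ranges overlapped, 26.2 to 223 CPM at 2 h and 45.8 to 106 CPM at 6 h. The log2 fold change from 2 to 6 h was 0.61 ± 0.18 over all libraries (adjusted p = 0.00388, edgeR) and 1.13 ± 0.10 without replicate 1 (adjusted p = 1.54e-09, edgeR). Without replicate 2 or 3 it was 0.49 and 0.40 and did not pass (adjusted p = 0.128 and 0.193, edgeR). From 6 to 24 h it was -0.42 ± 0.18 (adjusted p = 0.0433, edgeR), -0.62 without replicate 1 (adjusted p = 1.14e-05, edgeR), and did not pass without replicate 2 (-0.39, adjusted p = 0.231, edgeR) or replicate 3 (-0.28, adjusted p = 0.367, edgeR).

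Icam1, which binds leukocyte integrins at the cell surface, rose between 2 and 6 h by a log2 fold change of 0.52 ± 0.22 (adjusted p = 0.0442, edgeR), higher in 17 of 18 pairs. Medians were 35.7 CPM at 2 h, 46.6 CPM at 6 h and 50.7 CPM at 24 h. The call was lost without replicate 2 (0.58, adjusted p = 0.172, edgeR) and without replicate 3 (0.56, adjusted p = 0.113, edgeR). The 24 h level did not pass against 6 h (-0.26 ± 0.22, adjusted p = 0.324, edgeR) or against 2 h (0.26 ± 0.22, adjusted p = 0.29, edgeR). Without replicate 1 the 24 h level was above 2 h by 0.50 ± 0.13 (adjusted p = 0.00113, edgeR).

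Cd68 had medians of 47.1, 55 and 46.1 CPM at 2, 6 and 24 h, and none of the 3 time comparisons passed over all libraries. Without replicate 1 it was higher at 6 h than at 2 h (log2 fold change 0.47 ± 0.14, adjusted p = 0.00833, edgeR) and lower at 24 h than at 6 h (-0.54 ± 0.14, adjusted p = 0.00265, edgeR). Aif1 passed in no time comparison.

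From 2 to 6 h, 3 of the 6 genes that entered the test rose and 0 fell, where 49.1% of the 17172 genes tested passed in either direction and 22.2% rose. The median log2 fold change of the 6 was 0.69 and that of all genes was -0.02. From 6 to 24 h, 3 of 6 fell (Il6, Nfkbia and Ccl2) and 0 rose, where 50.6% of all genes passed and 26.3% fell, with medians of -0.45 and 0.01. From 2 to 24 h, Ccl2 rose and Il6 fell, 2 of 6, where 69.5% of all genes passed. The 6 include Aif1, which entered the test through libraries in which it was high, so these medians are descriptions only. In either direction, these shares of the 6 genes are near the background or below it. Aif1 could not be tested without replicate 1. The comparisons share libraries, since each time point enters a pair of them.

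The rMBD3 virus was compared with the GFP virus over all times and media, and Nfkbia and Icam1 were higher in the rMBD3 cultures. At 2 h with magnesium, Nfkbia stood at 170, 55.7 and 38.2 CPM in replicates 1, 2 and 3 of the rMBD3 cultures, and at 26.2, 33.4 and 35.3 CPM in the GFP cultures. In magnesium-free medium it stood at 223, 53.7 and 43 CPM with rMBD3 and at 71.4, 33.7 and 41.5 CPM with GFP. Replicate 1 of the rMBD3 cultures was the highest in both media, and the remaining 4 rMBD3 libraries overlapped the GFP libraries. At 6 h the rMBD3 libraries held 106, 80.1 and 84 CPM with magnesium and 105, 79 and 93.3 CPM without, and at 24 h 137, 56.1 and 57.4 CPM with magnesium and 55.6, 59.5 and 59.8 CPM without. The GFP libraries spanned 46.2 to 96.6 CPM at 6 h and 35.1 to 74.5 CPM at 24 h, overlapping the rMBD3 libraries at both times.

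Icam1 was likewise highest in replicate 1 of the rMBD3 cultures at 2 and 6 h. At 2 h the rMBD3 libraries held 92.2, 42.7 and 34 CPM with magnesium and 149, 48.8 and 39 CPM without, against 11.5, 31.7 and 33.7 CPM and 36, 33.1 and 35.4 CPM in the GFP libraries. At 6 h they held 124, 51 and 39.4 CPM with magnesium and 217, 45.1 and 40.6 CPM without, against 26.3, 45.9 and 46 CPM and 60.8, 55.4 and 46.1 CPM with GFP. Replicate 1 of rMBD3 was the highest in both media at both times. At 2 h the lowest rMBD3 library (34 CPM) lay within the range of the GFP libraries and the others lay above it, and at 6 h replicates 2 and 3 of rMBD3 lay within the GFP range. At 24 h the 6 rMBD3 libraries were close together, 60.8 to 67.5 CPM, and lay above all 6 GFP libraries (39.2 to 59.9 CPM) and all 6 untransfected libraries (15.1 to 51.3 CPM). How many of all genes separated in this way was not counted. The 24 h difference of Icam1, a log2 fold change of 0.39 ± 0.37 against GFP, did not pass (adjusted p = 0.632, edgeR). Past that threshold at 24 h were 0.949% of all genes.

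**Figure D2:**
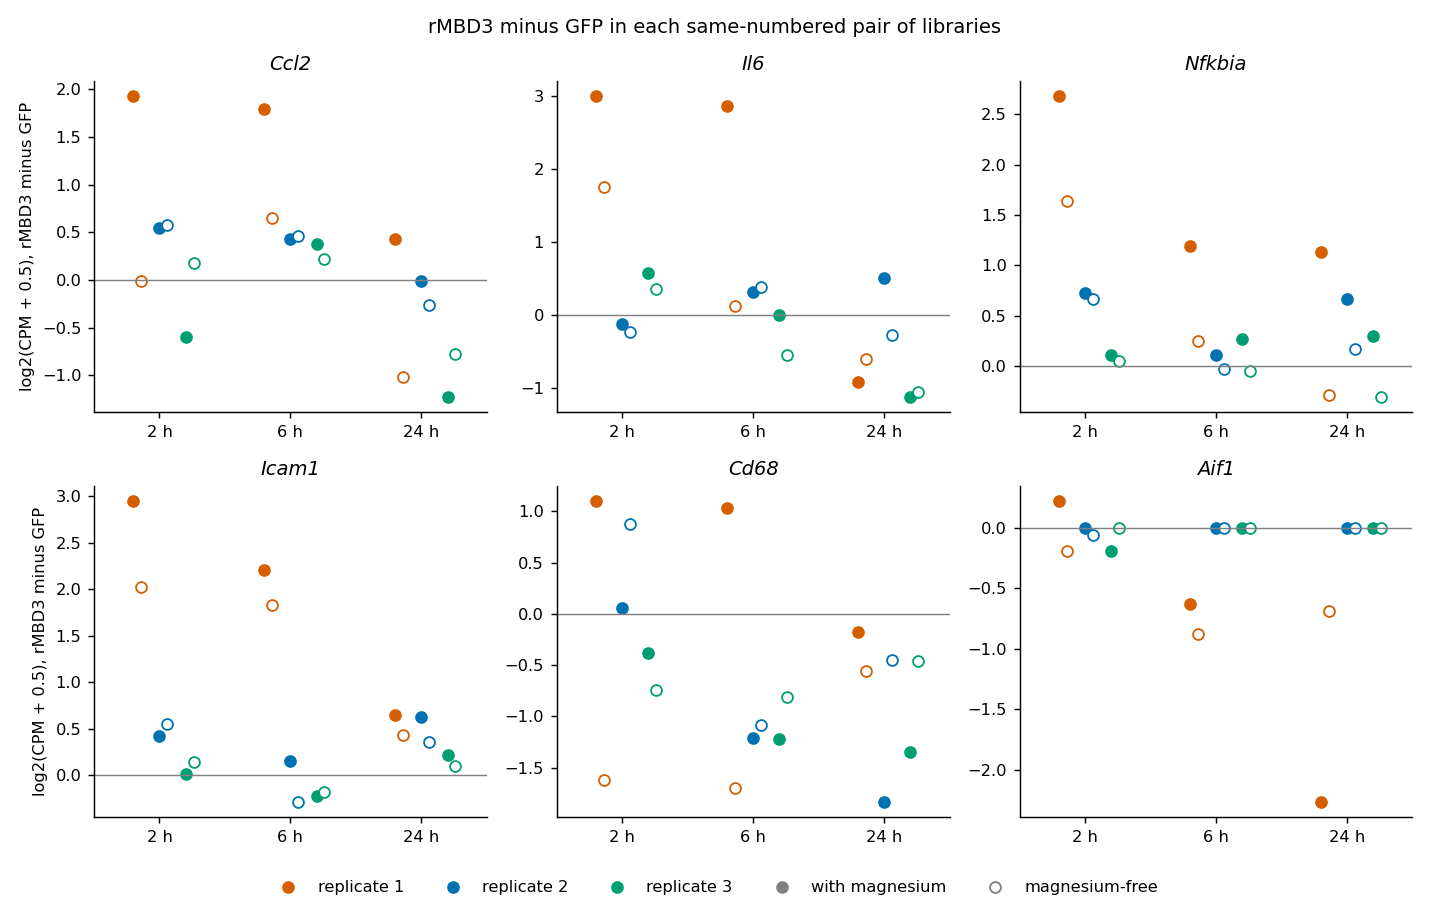
Difference between the rMBD3 library and the GFP library of the same time point, medium and replicate number, in log2(CPM + 0.5), for 6 genes, with 1 point per pair, colour for the replicate number and open points for magnesium-free medium. Replicate 1 gave the largest Icam1 differences, up to 2.95, while replicates 2 and 3 ran from -0.29 to 0.63.

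Over all times, Nfkbia was higher with rMBD3 than with GFP by a log2 fold change of 0.64 ± 0.18 (adjusted p = 0.0153, edgeR) and Icam1 by 0.81 ± 0.22 (adjusted p = 0.0122, edgeR). Nfkbia was higher in 14 of 18 same-numbered pairs and Icam1 in 15 of 18. These were 2 of the 6 genes tested, counting Aif1, where 11% of all genes passed and 6.41% rose. The differences rested on replicate 1 for their size. Without it, Nfkbia was at 0.23 ± 0.10 (adjusted p = 0.122, edgeR) and Icam1 at 0.17 ± 0.13 (adjusted p = 0.407, edgeR), and neither passed. Without replicate 2 both calls were also lost, at 0.73 for Nfkbia (adjusted p = 0.1, edgeR) and 1.01 for Icam1 (adjusted p = 0.082, edgeR), and without replicate 3 that of Nfkbia was lost (0.84, adjusted p = 0.0552, edgeR). In the same-numbered pairs of replicate 1 the mean difference in log2(CPM + 0.5) was 1.10 for Nfkbia and 1.68 for Icam1, against 0.22 and 0.16 in the 12 pairs of replicates 2 and 3.

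Il6 was also high in replicate 1 of the rMBD3 cultures at the earlier times. It was at 23.1 CPM with magnesium and 26.4 CPM without at 2 h, and at 38.1 and 18.9 CPM at 6 h. The 24 GFP and untransfected libraries of those times spanned 1.11 to 17.4 CPM, and replicates 2 and 3 of the rMBD3 cultures spanned 1.37 to 3.73 CPM at 2 h and 3.17 to 5.9 CPM at 6 h. At 24 h, replicate 1 with rMBD3 was at 3.01 and 3.54 CPM, below the 6.13 and 5.67 CPM of replicate 1 with GFP. The difference over all times did not pass (0.59 ± 0.50, adjusted p = 0.499, edgeR), and without replicate 1 its sign turned (-0.39 ± 0.38, adjusted p = 0.551, edgeR). Ccl2 did not pass either (0.19 ± 0.19, adjusted p = 0.577, edgeR), and without replicate 1 it was at -0.01 ± 0.13. The rMBD3 library was higher in Ccl2 than its GFP partner in 6 of 6 pairs at 6 h (mean difference in log2(CPM + 0.5) 0.66) and lower in 5 of 6 at 24 h (mean -0.47). Neither passed, at 0.56 ± 0.33 (adjusted p = 0.634, edgeR) and -0.42 ± 0.33 (adjusted p = 0.54, edgeR). The difference of the rMBD3 effect on Ccl2 between 24 h and 2 h was -0.87 ± 0.47 and did not pass (adjusted p = 0.622, edgeR), and 24 h against 6 h was not tested.

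Taken by time point, Nfkbia passed at 2 h (log2 fold change 1.30 ± 0.31, adjusted p = 0.0285, edgeR), and it was 1 of the 6 genes where 0.874% of all genes passed (0.769% higher). Without replicate 1 it was 0.43 ± 0.17 (adjusted p = 0.288, edgeR), and it did not pass without replicate 2 (1.49, adjusted p = 0.596, edgeR) or 3 (1.69, adjusted p = 0.143, edgeR). Icam1 was at 1.16 ± 0.38 at 2 h and did not pass (adjusted p = 0.155, edgeR). DESeq2 called both at 2 h, Nfkbia at 1.31 (adjusted p = 0.00353, DESeq2) and Icam1 at 1.17 (adjusted p = 0.0483, DESeq2). At 6 h 0 of the 6 genes passed in edgeR and in DESeq2, 1 (Icam1) had an unadjusted p under 0.05, and 0.221% of all genes passed. At 24 h 0 passed in either tool, and 1 had an unadjusted p under 0.05, Aif1, whose tests are not used here for the reason given with its levels. Whether the effect of rMBD3 differed between 24 h and 2 h was tested directly, and no gene of the 6 passed, where 0.0175% of all genes did. For Nfkbia that difference was -0.98 ± 0.43 (unadjusted p = 0.0285, adjusted p = 0.57, edgeR), and for Il6 it was -2.69 ± 1.26 (unadjusted p = 0.038, adjusted p = 0.595, edgeR).

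**Figure D3:**
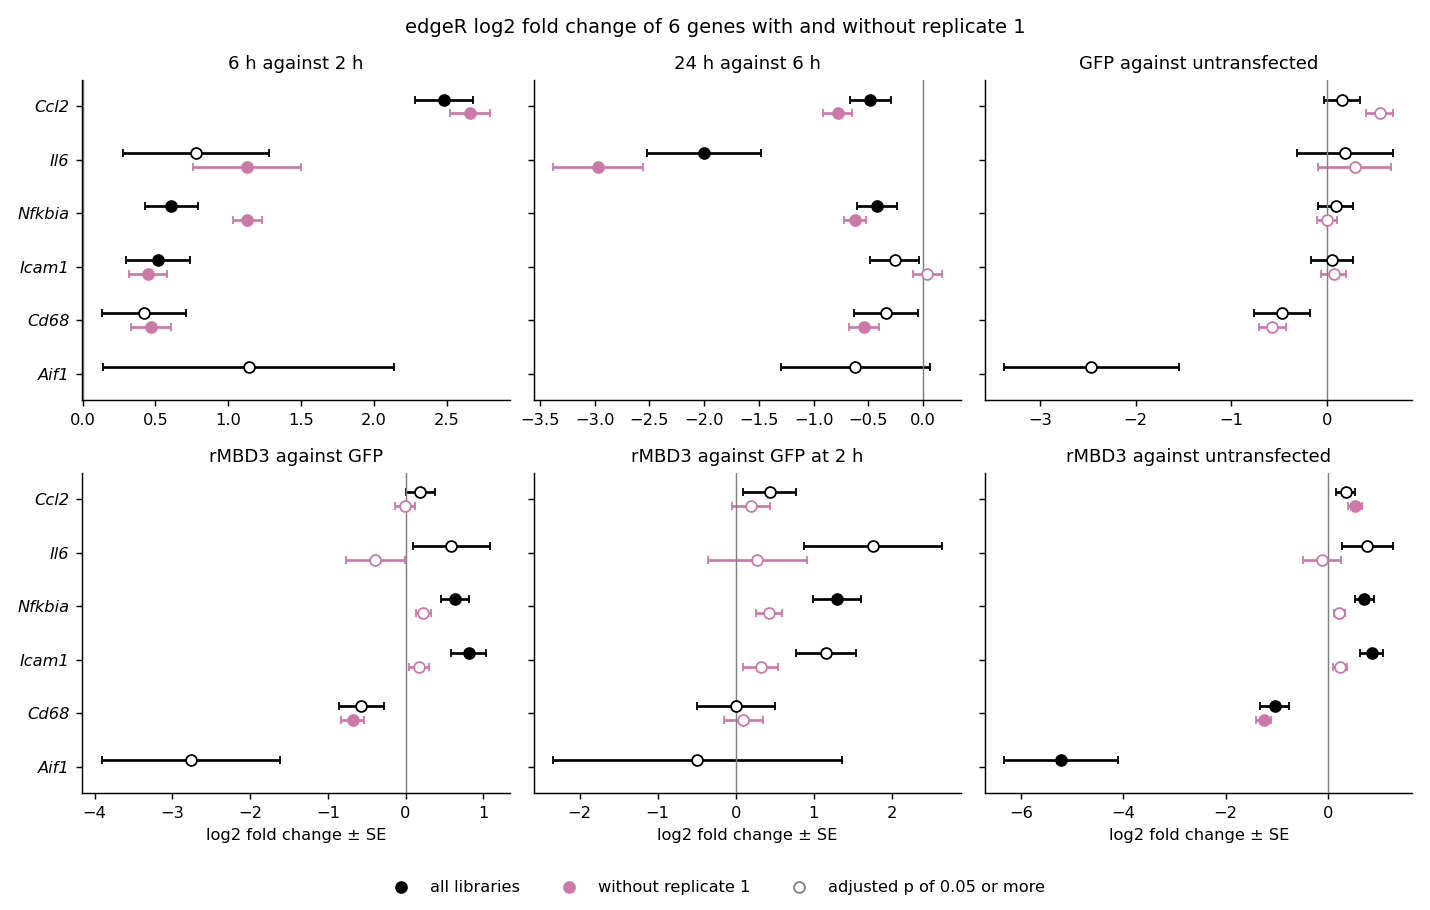
Log2 fold change from edgeR for 6 genes in 6 comparisons, with a standard error derived from the F statistic. Values are over all libraries (black) and without replicate 1 (pink), with filled points for an adjusted p under 0.05. For rMBD3 against GFP, Nfkbia moved from 0.64 to 0.23 and Icam1 from 0.81 to 0.17, and Aif1 has no value without replicate 1 because it was then not tested. The Aif1 points show fitted values that are not used here, since Aif1 entered the test through libraries in which it was high.

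At 6 and 24 h, Cd68 was lower with rMBD3 than with GFP in replicates 2 and 3, the cultures in which it was abundant. At 6 h these replicates held 122 and 116 CPM in untransfected cultures with magnesium and 155 and 149 CPM without. With GFP they held 84.8 and 73.1 CPM with magnesium and 124 and 67 CPM without. With rMBD3 they held 36.5 and 31 CPM with magnesium and 58 and 38.1 CPM without, below every GFP and untransfected library of those replicates at 6 h. At 24 h the same replicates held 21.1 to 45.2 CPM with rMBD3 and 55.1 to 76.7 CPM with GFP, while untransfected cultures held 40.2 to 108 CPM and overlapped both. The gap between rMBD3 and GFP holds only with replicate 1 set aside. At 24 h replicate 1 held 27.8 to 47.1 CPM with rMBD3 and 41.1 to 53.5 CPM with GFP. The rMBD3 library was below its GFP partner in 6 of 6 pairs at 24 h. At 2 h the rMBD3 and GFP ranges of replicates 2 and 3 overlapped (28.1 to 88.7 CPM against 42.1 to 48.1 CPM). In replicate 1, Cd68 ran from 11 to 47.1 CPM with rMBD3, from 9.53 to 53.5 CPM with GFP and from 6.57 to 59 CPM untransfected. There the rMBD3 library with magnesium was above its GFP partner at 2 h (20.9 against 9.53 CPM) and 6 h (35 against 16.9 CPM). Without magnesium it was below its partner at 2 h (11 against 34.8 CPM) and 6 h (14.6 against 48.4 CPM).

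Against GFP the log2 fold change of Cd68 was -0.57 ± 0.29 over all libraries and did not pass (adjusted p = 0.206, edgeR), with 14 of 18 pairs lower. Without replicate 1 it was -0.68 ± 0.15 (adjusted p = 0.00379, edgeR). At 24 h alone it was -0.78 ± 0.50 over all libraries and did not pass (adjusted p = 0.431, edgeR). Without replicate 1 the 24 h value was -1.05 ± 0.25 (adjusted p = 0.0127, edgeR). Against untransfected cultures it fell by 1.04 ± 0.29 on the log2 scale over all libraries (adjusted p = 0.0181, edgeR), with 13 of 18 pairs lower, and by 1.25 ± 0.15 without replicate 1 (adjusted p = 5.68e-06, edgeR). That call was lost without replicate 2 (-1.12, adjusted p = 0.127, edgeR) and without replicate 3 (-0.74, adjusted p = 0.564, edgeR). GFP against untransfected did not pass (-0.47 ± 0.29, adjusted p = 0.684, edgeR), although 10 of the 12 pairs of replicates 2 and 3 were lower.

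Aif1 was found at a low level, and in replicate 1 above all. In untransfected cultures of replicate 1 it stood at 1.71, 1.9 and 3.19 CPM at 2, 6 and 24 h with magnesium and at 0.378, 2.15 and 4.67 CPM without. In GFP cultures of replicate 1 it stood at 0.0832, 0.456 and 1.91 CPM with magnesium and at 0.0686, 0.663 and 0.306 CPM without. In rMBD3 cultures of replicate 1 it stood at 0.181, 0.118 and 0 CPM with magnesium and at 0, 0.131 and 0 CPM without. The untransfected libraries of replicate 1 lay above the GFP library of the same time and medium in all 6 pairs, and 5 of 6 GFP libraries lay above their rMBD3 partner. In replicates 2 and 3 together, 11 of 36 libraries held any Aif1 count, 41 counts in all, and none was above 0.45 CPM.

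Over all replicates, Aif1 had 440 counts in the 18 untransfected libraries, 86 in the 18 GFP libraries and 12 in the 18 rMBD3 libraries. Replicate 1 held 403, 83 and 11 of these, and replicates 2 and 3 together held 37, 3 and 1. The rMBD3 library was below its untransfected partner in 14 of 18 pairs and above it in 0. In replicates 2 and 3 this was 8 of 12 pairs, on few counts. In replicate 2 they included 1 count against 0 in magnesium-free medium at 6 h and with magnesium at 2 h. They also included 3 against 1 in magnesium-free medium at 2 h. The widest was 12 against 0, with magnesium at 24 h in replicate 2. A count of 0 allows up to 3 counts, so the smallest of these differences cannot be called lower. At 24 h the 6 rMBD3 libraries had 0 counts and the 6 untransfected libraries had 265, of which 244 were in replicate 1 and 149 in 1 library. The 6 GFP libraries at 24 h had 52 counts, all in replicate 1 and 46 of them in 1 library. No fold is given, since it would rest on those few libraries. Aif1 passed the filter on low counts through the libraries in which it was high, nearly all of them untransfected or GFP libraries of replicate 1, and without that replicate it was not tested. Its fitted differences between constructs are therefore not used, and its counts stand as a description.

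**Figure D4:**
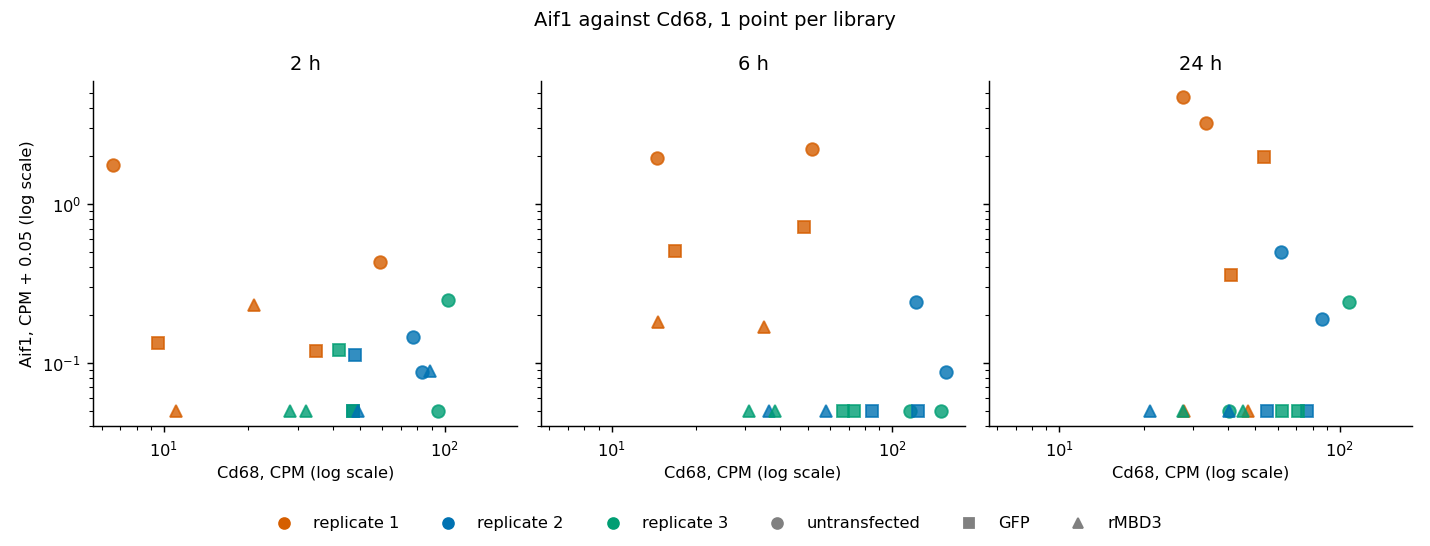
Aif1 (CPM plus 0.05, log axis) against Cd68 (CPM, log axis) in each library, by time point, with colour for the replicate number and symbol for the construct. Libraries of replicate 1 hold most of the Aif1 and less Cd68, and libraries of replicates 2 and 3 hold Cd68 from 21.1 to 155 CPM with Aif1 at or near 0.

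The microglial genes did not go together across replicates. Replicates 2 and 3 had Cd68 at a median of 62.1 CPM with Aif1 at 0 in 25 of 36 libraries. In untransfected cultures, Cd68 was at a median of 98.8 CPM in replicates 2 and 3 and 30.6 CPM in replicate 1, while Aif1 was at a median of 0.0662 and 2.02 CPM. Il1b, a cytokine made mainly by activated macrophages and microglia, had any count in 7 of 54 libraries, with 71 counts in all. Of these, 62 were in replicate 1, and 49 were in the 2 untransfected libraries of replicate 1 at 24 h, at 0.402 CPM with magnesium and 1.16 CPM without, where Aif1 was also highest. Il1b did not pass the filter on low counts and was not tested. In the rMBD3 cultures of replicate 1, where Il6, Nfkbia and Icam1 were high at 2 h, Il1b had 2 counts and Aif1 had 5 counts in the 2 libraries of that time. The part of culture composition in the differences between constructs was not tested.

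Against untransfected cultures, Nfkbia was higher with rMBD3 by 0.72 ± 0.18 (adjusted p = 0.00622, edgeR) and Icam1 by 0.86 ± 0.22 (adjusted p = 0.00858, edgeR), and Cd68 was lower, as given above. Leaving Aif1 aside, 3 of 5 genes thus passed, 2 upwards and 1 downwards, where 8.65% of all genes passed in either direction, 4.27% upwards and 4.38% downwards. Without replicate 1 neither Nfkbia (0.23 ± 0.10, adjusted p = 0.122, edgeR) nor Icam1 (0.24 ± 0.13, adjusted p = 0.214, edgeR) passed. Ccl2 then did, at 0.54 ± 0.14 (adjusted p = 0.00953, edgeR) against 0.35 ± 0.19 over all libraries (adjusted p = 0.275, edgeR). In the pairs of replicates 2 and 3, rMBD3 was above untransfected in Ccl2 in 9 of 12, with a mean difference in log2(CPM + 0.5) of 0.55. GFP was above untransfected in 9 of the same 12 pairs, also with a mean of 0.55, and its fold change without replicate 1, 0.55 ± 0.14, did not pass (adjusted p = 0.105, edgeR). Both comparisons use the same untransfected libraries. In replicate 1, GFP was below untransfected in 4 of 6 pairs (mean -0.52). The comparison of rMBD3 with untransfected cultures shares its rMBD3 libraries with the one against GFP. For GFP against untransfected, 0 of the 6 genes passed in edgeR or DESeq2, 1 (Aif1, not used) had an unadjusted p under 0.05, and 0.297% of all genes passed. Apart from Aif1 and Cd68, the fold changes there over all libraries ran from 0.05 (Icam1) to 0.19 (Il6) on the log2 scale, each smaller than its standard error.

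For magnesium-free against magnesium medium, 0 of the 6 genes passed at 2, 6 or 24 h in edgeR or in DESeq2, with 0 of 6 at an unadjusted p under 0.05, where 0% of all genes passed in edgeR at each time. At an unadjusted p under 0.05 there were 132, 355 and 1988 of all genes, and DESeq2 called 1, 0 and 103. At 24 h the count in edgeR was 36 with the replicate number as a block and 1186 with the block per time point, and 0 of the 6 genes passed in either fit. In same-numbered pairs, Icam1 was higher without magnesium in 22 of 27 (8 of 9 at 2 h) and Nfkbia in 20 of 27 (8 of 9 at 2 h). The largest difference of a cytokine was that of Il6 at 2 h, 0.67 ± 0.71 (adjusted p = 1, edgeR), and replicate 1 again held the wide values, 2.8 CPM with magnesium and 8.54 CPM without in untransfected cultures and 2.46 and 7.48 CPM in GFP cultures. Icam1 at 2 h was at 0.48 ± 0.31 (adjusted p = 1, edgeR), with 11.2 and 50.1 CPM in replicate 1 untransfected and 11.5 and 36 CPM with GFP. In replicates 2 and 3 the same libraries lay between 29.5 and 39.9 CPM in both media. For Ccl2 at 24 h, the gene with the smallest p, the difference was -0.44 ± 0.27 (adjusted p = 0.544, edgeR). Neither the change of the medium effect between 2 and 24 h, nor that of the GFP virus, nor the difference of the rMBD3 effect between media passed for any of the 6 genes (adjusted p = 1 for each, edgeR), where 0% of all genes passed.

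Across the 18 group means of log2 CPM, the gene whose pattern was most like that of Nfkbia was ENSRNOG00000006995 (chr7:126933936-127113589), with a Pearson r of 0.937 among 12561 genes. Icam1 was 20th, with r = 0.876, Ccl2 was at r = 0.668, Il6 at r = 0.548 and Cd68 at r = -0.0437. Group means share the replicate 1 libraries and the depth of each group, so these are descriptions of these 18 groups.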

How the data were processed

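The values are counts of read pairs per gene, deposited by the authors as 1 table. Per the file headers, featureCounts 2.0.0 counted primary alignments with mapping quality 3 or more, using strand (setting 2), on Ensembl release 105 of mRatBN7.2. Per the labels' protocols, libraries were stranded mRNA, alignment was with STAR and testing with DESeq2; the labels name rn6, and the submitters' processing notes name mRatBN7.2. A deposited table of log2 values was not used.

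Groups and replicate numbers came from the labels. Nothing in the labels says whether cultures of 1 number share animals. All 54 libraries were fitted in 1 edgeR 4.0.16 quasi-likelihood model (R 4.3.3, limma 3.58.1) with a coefficient for each of the 18 groups, TMM scaling and filterByExpr (minimum count 10, minimum total 15), which kept 17172 of 30560 genes and 6 of the 7 described. Benjamini-Hochberg adjustment covered the 17172 genes, and an adjusted p under 0.05 passed. The SE, also given after ±, is not an output of this test. It was derived as the absolute log2 fold change divided by the square root of the F statistic, so it is approximate. A count of 0 in a library allows up to 3 counts, which covers counting error only. The main fit had no block for the replicate number. Its biological coefficient of variation was 39.7%, and with such a block it was 31.7%.

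Replicate numbers pair the samples, since the labels give them as the number of the cell culture; deviations of same-numbered libraries at 1 time point correlated at a mean r of 0.277 (-0.172 to 0.558). Differences of pairs used log2(CPM + 0.5). Alternatives were a replicate block, the same per time point, RLE factors, no low-count filter, DESeq2 1.42.0 (minimum total count 10) and leaving out each replicate number. On simulated data with 17172 genes, the fit of rMBD3 against GFP recovered 74% of 2-fold and 89% of 4-fold changes with 4.68% false calls. At 2 h it recovered 50% and 68% with 4.84% false calls. The simulated libraries were drawn independently, with no effect of the culture number. These rates therefore do not describe the error of the fit where same-numbered libraries share deviations.

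The genes named were the 9 given by the rule, all accounted for, plus the 1 gene nearest in pattern to Nfkbia among genes with a mean log2 CPM of at least 1. The members and the lists were chosen with earlier results of these data known. Lists of cell type markers and of other NF-kappaB and cytokine genes were not analysed here, nor was a gene near Csf1r, because 0 identifiers of the count table matched the 47357 genes of the RefSeq table (GRCr8). RefSeq served for promoters by symbol.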

Additional observations from a re-analysis of the deposited data

How the results depend on the processing

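The calls on single genes depended mostly on which replicate number was left out. Of the values of single genes, leaving out a number kept direction and side of the threshold in 112, lost the call in 23, gained it in 8 and turned the sign in 10, and the other alternatives gave 235, 4, 8 and 3. The cause was not tested for any of these. Fits without 1 number have fewer libraries, and the part of this in the lost calls was not tested. Some of these fits called more genes than the main fit and some fewer. P-values of the main fit measure the spread between the libraries of a group and take all libraries as independent, which the labels do not state. Aif1 and Il1b were near the limit of counting, with 0 counts in 28 and 47 of the 54 libraries. The part of depth in this was not tested.

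With the replicate block (all times together, then per time point), genes past the threshold numbered 2992 and 4083 for rMBD3 against GFP (1886 without it), 458 and 1035 at 2 h (150), 243 and 533 at 6 h (38), 1131 and 2174 at 24 h (163), 230 and 501 for GFP against untransfected (51), and 2259 and 3380 for rMBD3 against untransfected (1485). They numbered 36 and 1186 for the medium at 24 h (0), and 6 and 25 for the rMBD3 effect at 24 h against 2 h (3). For the rMBD3 effect between media 1 gene passed with the block per time point (0 without). Of the 6 genes described, 1 (Aif1) passed with either block for rMBD3 against GFP at 24 h and for GFP against untransfected (0 without). Aif1 entered the test through libraries in which it was high, so its calls, though counted here and among the 2 to 3 genes below, are not used as support. The block turned the sign of Aif1 at 24 h against 2 h (-0.38) and of Cd68 for rMBD3 against GFP at 2 h (-0.06, and -0.09 per time point). Beyond Il6 from 2 to 6 h, given above, and Aif1 for rMBD3 against GFP (over all times and at 24 h) and for GFP against untransfected, it changed no call on the 6 genes.

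DESeq2 called 382 genes for rMBD3 against GFP at 2 h, of which 2 were among the 6 (Nfkbia and Icam1), 189 at 6 h and 590 at 24 h. It called 280 for GFP against untransfected, 1 and 103 for the medium at 2 and 24 h, 11 for the rMBD3 effect at 24 h against 2 h, 1 for that of the GFP virus and 5 for that of the medium. RLE factors gave 67 genes for rMBD3 against GFP at 6 h and 1 for the medium at 24 h. Without the low-count filter, rMBD3 against GFP called 24 genes at 6 h and 70 at 24 h, and of the 6 genes 1 passed from 6 to 24 h (3 with the filter) and 1 from 2 to 24 h (2 with it).

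Leaving out 1 number at a time, the genes past the threshold ran from 5179 to 9767 for 6 h against 2 h, 5413 to 10244 for 24 h against 6 h, 309 to 2468 for rMBD3 against GFP, 1 to 215 at 2 h, 1 to 51 at 6 h and 1 to 1766 at 24 h. They ran from 0 to 25 for GFP against untransfected, 322 to 2399 for rMBD3 against untransfected, 0 to 176 for the medium at 24 h, 0 to 54 for the rMBD3 effect at 24 h against 2 h and 0 to 2 for that of the GFP virus. Of the 6 genes, 1 to 5 passed for 6 h against 2 h, 0 to 4 for 24 h against 6 h, 1 to 4 for 24 h against 2 h, 0 to 1 for rMBD3 against GFP, 0 at 2 h, 0 to 1 at 24 h, and 2 to 3 for rMBD3 against untransfected. The log2 fold changes whose sign turned ran from -0.08 (without replicate 1) to 0.40 for Cd68 at 24 h against 2 h. For rMBD3 against GFP they ran from -0.39 (without replicate 1) to 0.88 for Il6, from -0.01 (without replicate 1) to 0.45 for Ccl2, at 2 h from -0.52 (without replicate 2) to 0.31 for Cd68, and at 6 h from -0.04 to 1.34 for Il6 and -0.11 to 1.25 for Icam1 (both lowest without replicate 1). For GFP against untransfected they ran from -0.15 to 0.55 for Ccl2 and from -0.03 to 0.13 for Icam1 (both lowest without replicate 3). For rMBD3 against untransfected Il6 ran from -0.11 (without replicate 1) to 0.98. For Icam1 at 24 h against 6 h the value without replicate 1 was 0.04, against -0.38 in the lowest of the 3.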
